A study of Mus musculus with 15 samples.

Results

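MicroRNA genes were followed through the thalamic transcriptome of saline-injected and cocaine-injected mice. A gene was a member if its symbol began with Mir and a digit, or with Mirlet7, and did not end in hg, the ending of host genes. Of the 25080 symbols listed for every library, 1153 met this rule. Of these, 144 reached 1 TPM, the share of a library's transcripts that falls to a gene after scaling for length, in at least 3 libraries and entered the tests, among 13471 genes tested in all.

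MicroRNAs are cut from a hairpin that lies inside a longer primary transcript. Drosha with Dgcr8 frees the hairpin in the nucleus, Dicer1 removes its loop, and an Argonaute protein keeps 1 strand, which pairs with messenger RNAs through its seed near the 5′ end. Many microRNA genes sit in introns or exons of host genes or in clusters along a single transcript. In the brain the imprinted Dlk1-Dio3 region, with the noncoding RNAs Meg3, Rian and Mirg, holds one of the largest such clusters. The libraries studied here were made from total RNA after removal of ribosomal RNA and carry no selection for small RNA. The values are therefore reads assigned to hairpin-sized genes and are not levels of mature microRNAs.

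The study asked how repeated cocaine changes transcription in the thalamus and whether the change depends on Maged1. The mice were 2 to 4 months old. In the conditional knockout (cKO), Cre under the vGluT2 promoter deleted loxP-flanked Maged1, so cells without vGluT2 kept the gene in the dissected thalamus. Control mice are called WT in the sample titles and Maged1 Loxp in the genotype tag. All mice received saline for 3 days and then saline or cocaine (20 mg/kg, intraperitoneal) for 5 days. Tables of 14 libraries were used, namely 4 labelled control saline, 4 labelled cKO saline, 4 labelled control cocaine and 2 labelled cKO cocaine. A further cKO cocaine library, which makes 15 in the series, was not analysed here.

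Several facts about the libraries touch every comparison. Maged1 was at 163.5 to 188.6 TPM in control saline and 69.2 to 89.4 TPM in cKO saline libraries, but at 49.7 to 76.7 TPM in libraries labelled control cocaine and 140.4 and 144.3 TPM in those labelled cKO cocaine. After cocaine the targeted gene thus went against the labels, and 4 saline libraries carry a genotype tag that contradicts their title. The comparison of cocaine with saline was therefore also averaged over the genotype labels, which gives the same direction whichever cocaine group is which. The noncoding RNA Bc1 took 3.60 to 5.00% of the listed TPM in saline libraries and 10.3 to 15.5% in cocaine libraries, and Gm20594 took 2.29 to 4.38% and 10.4 to 17.1%. The summed TPM of 10 hypothalamus markers ran from 147.9 to 528.0 in control saline, 12.4 to 170.9 in cKO saline, 3.67 to 112.6 in control cocaine and 34.0 to 61.1 in cKO cocaine libraries. Oxytocin (Oxt), a defining marker, was at 0 in 3 of 4 control cocaine libraries, and the part of these shifts in the microRNA values was not tested. The thalamus markers summed to 480.6 to 826.8 TPM over all 14 libraries, but single markers differed. By the limma test and call rule given below, 2 of 10 were higher and 1 lower with cocaine within the control label. These were Lef1, Prkcd and Calb2. Within the cKO label 2 were higher, Gbx2 and Calb2, and 0 were called in the average. Of all genes, 3.10%, 3.07% and 2.07% were called. The interaction test called Calb2. Choroid plexus markers summed to between 15.3 and 1549 TPM within the control saline group alone.

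The counted unit of these tables is the hairpin, so the hairpins and seeds on which the results turn are shown first, as RefSeq gives them on GRCm38.p6. In the hairpins below, capitals mark the annotated mature arms.
Mir453 hairpin (chr12:109735619-109735700, +): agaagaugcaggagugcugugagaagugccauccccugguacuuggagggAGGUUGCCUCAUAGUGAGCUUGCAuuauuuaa
Mirlet7d hairpin (chr13:48536012-48536114, -): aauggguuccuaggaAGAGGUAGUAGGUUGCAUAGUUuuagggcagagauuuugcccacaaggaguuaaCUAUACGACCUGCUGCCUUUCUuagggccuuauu
Mir1966 hairpin (chr8:105615466-105615573, +): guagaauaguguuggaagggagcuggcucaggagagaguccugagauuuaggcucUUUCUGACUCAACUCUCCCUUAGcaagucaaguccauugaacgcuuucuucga
Mir1188 hairpin (chr12:109611822-109611941, +): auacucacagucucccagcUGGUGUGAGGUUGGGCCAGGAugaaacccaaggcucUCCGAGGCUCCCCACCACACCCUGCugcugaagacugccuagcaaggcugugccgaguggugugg

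The mature arms below have the seed, bases 2 to 8, in capitals. They are shown because they separate members that share a target seed from neighbours that do not.
mmu-miR-666-5p: aGCGGGCAcagcugugagagcc
mmu-miR-666-3p: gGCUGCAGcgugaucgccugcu
mmu-miR-453: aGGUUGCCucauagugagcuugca
mmu-miR-494-5p: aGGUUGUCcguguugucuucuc
mmu-let-7d-5p: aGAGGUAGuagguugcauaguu
mmu-let-7a-5p: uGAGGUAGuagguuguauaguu
mmu-let-7f-5p: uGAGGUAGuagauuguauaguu
The let-7 arms share the seed GAGGUAG, and Mir3070a and Mir3070b share both of theirs, GCCCCUG and GGUGCUA. Among the named members with a RefSeq entry, the only other shared seed was UAUACAA, on the 3′ arms of let-7a-1 and let-7f-1. The arms of miR-666, miR-453 and miR-494 had seeds of their own, although their genes are neighbours on the same strand of chromosome 12.

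Most microRNA genes had no signal at all. Of the 1153 members, 875 were at 0 in every library, and 92.0% of all member values were 0, against 28.7% over all listed symbols. Per library, 68 to 120 members were above 0, which left 89.6 to 92.3% at 0 in the 8 saline libraries and 92.0 to 94.1% in the 6 cocaine libraries. Among the 144 tested members, 47.9% of the values were 0. Only 11 members were above 0 in all 14 libraries. These were Mir666, Mir341, Mir1188, Mir337, Mir1193 and Mir3070a of chromosome 12, Mirlet7f-1, Mir124a-2, Mir1249, Mir6992 and Mir8094. Of the 144, 38 passed with exactly 3 libraries at 1 TPM or more. A further 42 members reached 1 TPM in 2 libraries and 79 in a single library, and these were not tested.

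**Figure D1:**
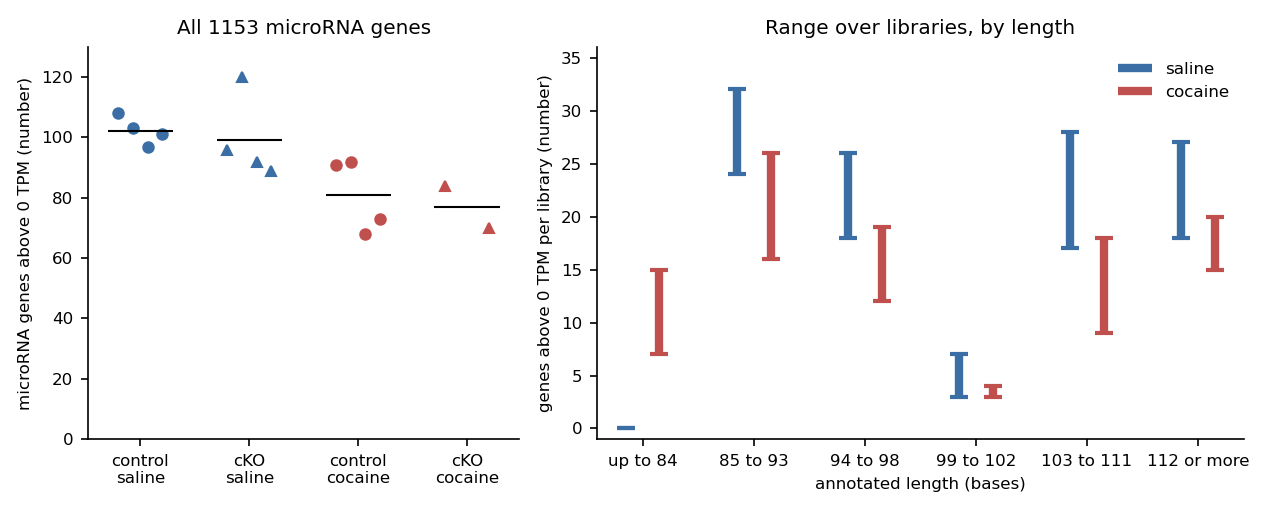
Number of microRNA genes above 0 TPM per library, for all 1153 members by group (left, each point 1 library, circles control and triangles cKO labels, blue saline and red cocaine, bar the mean) and as the range over libraries by annotated length (right). Between 89 and 120 members were above 0 in saline libraries and 68 to 92 in cocaine libraries, while no member of up to 84 bases was above 0 in any saline library.

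The presence of a value depended on the length of the gene, and differently in the 2 treatments. Of the 686 members of up to 84 bases, 0 were above 0 in any of the 8 saline libraries, whereas 7 to 15 were above 0 in each cocaine library. All short genes of this size behaved alike, small nucleolar RNAs included, since of 796 genes of up to 84 bases 0 had a saline value and 50 had a cocaine value. Over 85 to 93 bases, 24 to 32 members were above 0 per saline library and 16 to 26 per cocaine library. The length classes were set after the values were seen. In all, 64 members were at 0 in every saline library and above 0 in some cocaine library, and 67 were the other way round.

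TPM values of short genes also came in whole steps. A step is the smallest unit of which the values of equally long genes in 1 library are multiples, as when each fragment adds a fixed amount, and 99% of the 1251 member values of up to 10 steps were whole within 0.05 step or 2% of the steps. At most lengths the step was itself read from the lowest values, so this share is a description. Of all member values above 0, 51.7% were 1 step, 81.9% were 3 steps or fewer and 2.6% were more than 10 steps. Most values of microRNA genes thus rested on very few steps. Only 7 tested members exceeded 10 steps in any library, and these were Mir1188, Mir341, Mir1249, Mir337, Mir325, Mir338 and Mir6516.

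The size of 1 step differed between treatments at the same length. At 99 bases, the length of Mir666, it was 0.345 to 0.538 TPM in saline libraries and 23.4 to 35.6 TPM in cocaine libraries, a ratio of medians of 82.8. At 100 bases the ratio was 70.6. In saline libraries these steps were set to the TPM of 1 fragment in long genes, scaled to the full length of the hairpin, and not read from the lowest values. At the length of Mirlet7d the ratio was 0.508, with 30.3 to 47.0 TPM in saline libraries. At 108 bases, the length of Mir1966, the ratio was 0.879, and at 120 bases, the length of Mir1188, it was 1.11. These ratios are of TPM and are not adjusted for the depth of the library. The value of 1 fragment in long genes was itself 34.2 to 53.3 TPM times bases in saline and 42.7 to 66.0 in cocaine libraries. A ratio near 1 thus does not mean an equal step once depth is taken into account. For saline libraries between 85 and 98 bases the step differed from library to library and rested on the lowest value seen, so step numbers there are uncertain. The tests were therefore run on the deposited TPM and again, as an alternative chosen after seeing the data, with every step of a given length given the same value in all libraries apart from the depth of the library. This second fit is called the step fit here.

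**Figure D2:**
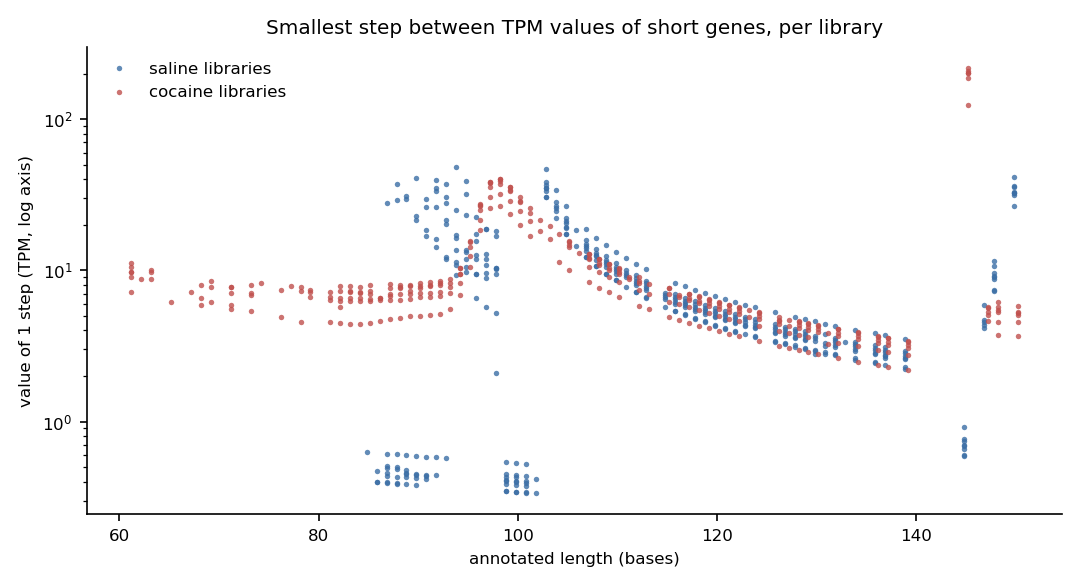
TPM of 1 step (log axis) against annotated gene length in bases from 60 to 150, each point 1 library at 1 length, blue saline and red cocaine. At 99 bases the saline points lie between 0.345 and 0.538 TPM and the cocaine points between 23.4 and 35.6 TPM. At 120 bases the 2 sets overlap in TPM, with a ratio of medians of 1.11 that is not adjusted for the depth of the library. Below 85 bases only cocaine libraries have points. The points at 145 bases and above rest on 1 gene a length, none of them a microRNA gene, and are not reliable.

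After TMM scaling, the limma comparison of cocaine with saline averaged over the genotype labels called 21 of 144 microRNA genes, 9 higher and 12 lower. A call needed an adjusted p under 0.05 and a log2 fold change of at least 0.5 in size. Over all 13471 genes, 2.07% were called, 1.05% higher and 1.02% lower. The members' median log2 fold change was -0.51 against 0.01 over all genes. In the libraries labelled control, 19 members were called, 8 higher and 11 lower, against 3.10% of all genes, 1.54% higher and 1.56% lower. In those labelled cKO, 9 members were called, 5 higher and 4 lower, against 3.07%, 1.83% and 1.24%. The medians over members were -0.52 in both. Without TMM scaling the median over all genes was -0.34 in the average, and the members called were 13 higher and 27 lower in the average, 10 and 21 in control, and 7 and 9 in cKO. Over all genes the same unscaled fit called 0.416% higher and 17.0% lower in the average, 0.393% and 17.6% in control, and 0.483% and 22.9% in cKO. The scaled fit's shares of the tested members were 14.6%, 13.2% and 6.25%, and the choice of tested members itself raised them. Of the 21 called in the average, 6 were at 0 in every saline library and 3 at 0 in every cocaine library, so these passed the filter through 1 treatment alone and could only differ one way. The other 12 were above 0 in both treatments. In control these numbers were 6, 3 and 10 of 19, and in cKO 3, 0 and 6 of 9. Of the 12 in the average, Mir1966, Mirlet7d, Mir6387, Mir1b, Mir3062 and Mir3470b were above 0 in fewer than 3 cocaine libraries each. They too entered the test through saline libraries, which favoured a lower call. The comparisons within each label use cocaine libraries whose Maged1 level went against that label.

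In the step fit the averaged comparison called 19 members against 2.03% of all genes, and 14 of them were also called with the deposited TPM. These were 6 higher and 8 lower. The 6 higher were at 0 in every saline library, so a new value per step could not change their direction. Of the 8 lower, Mir1969, Mir8095 and Mir3473g were at 0 in every cocaine library, which fixed theirs. Mir1966, Mirlet7d, Mir6387 and Mir1b entered the test through saline libraries, which favoured a lower call. Only Mir1193 had neither limit. The comparisons within labels called 16 and 8 members, each against 3.06% of all genes, with 15 and 6 shared. Of the members called with the deposited TPM, 7 were no longer called, namely Mir666, Mir744, Mir337, Mir1188, Mir665, Mir3062 and Mir3470b. In the other direction, 5 were called only in the step fit. Mir3101, Mir3061 and Mir669a-2 were lower, and they lie at lengths where saline step numbers are uncertain. Mir488 and Mir6992 were higher, and Mir488 was at 1 step wherever it was above 0.

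**Figure D3:**
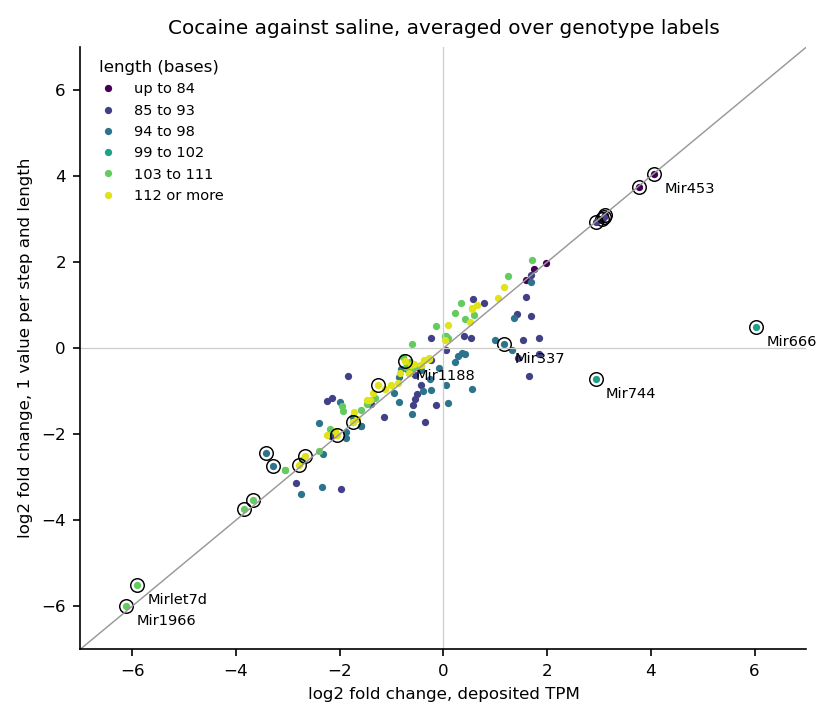
Log2 fold change of the 144 tested microRNA genes, cocaine against saline averaged over genotype labels, with the deposited TPM (x axis) and with 1 value per step and length (y axis), coloured by annotated length, circled where called with the deposited TPM. Mir666 moves from 6.03 to 0.49 and Mir744 from 2.93 to -0.72, whereas Mir1966 and Mirlet7d stay near the diagonal; values of members at 0 in a whole group depend on the pseudocount of 0.5 TPM.

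Mir666 had the largest rise among the members with the deposited TPM. Its gene lies at chr12:109717085-109717183 on the + strand and spans 99 bases. It was at 1.39, 2.14, 3.21 and 2.00 TPM in control saline and 2.28, 2.40, 1.78 and 1.63 TPM in cKO saline libraries, a mean of 2.18 ± 0.76 (SD, n = 4) and 2.02 ± 0.38 (SD, n = 4). It was at 114.1, 93.7, 142.0 and 106.9 TPM in libraries labelled control cocaine and 132.8 and 170.5 TPM in those labelled cKO cocaine, a mean of 114.2 ± 20.4 (SD, n = 4) and 151.7 ± 26.7 (SD, n = 2). Every cocaine library lay above every saline library, both as deposited and after TMM scaling, which was the case for 1 of 144 members on either scale. Of all tested genes it was the case for 0.156% as deposited and 5.75% after scaling. The log2 fold change was 6.03 ± 0.16 (SE), adjusted p = 1.7e-10 by limma. In steps the same values were 4, 5, 6 and 5 in control saline, 6, 7, 4 and 4 in cKO saline, 4, 4, 4 and 3 in control cocaine and 4 and 5 in cKO cocaine. The step numbers of the groups overlapped, while the TPM of 1 step at 99 bases did not. In the step fit Mir666 had a log2 fold change of 0.49 with an adjusted p of 0.0212 by limma, under the 0.5 needed for a call.

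Mir453 lies further along the same strand in an intron of Mirg, the long noncoding transcript at the end of the imprinted region. It was listed at 0 in all 8 saline libraries. After cocaine it was at 0, 8.96, 0 and 14.5 TPM in libraries labelled control and 23.5 and 22.8 TPM in those labelled cKO, which is 0, 2, 0 and 2 and then 3 and 4 steps. The averaged comparison called it higher (adjusted p = 0.00139 by limma), as did that within the cKO label (adjusted p = 0.00533), while that within the control label did not (adjusted p = 0.0864). At its 82 bases no gene of any kind had a saline value, so no saline level can be read for it. It passed the filter through cocaine libraries alone, which fixed the direction of its call, and the p-values support nothing beyond these values. Mirg itself was at 6.14 to 11.8 TPM in saline and 6.55 to 8.40 TPM in cocaine libraries and did not pass the test (log2 fold change 0.13, adjusted p = 0.474 by limma).

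**Figure D4:**
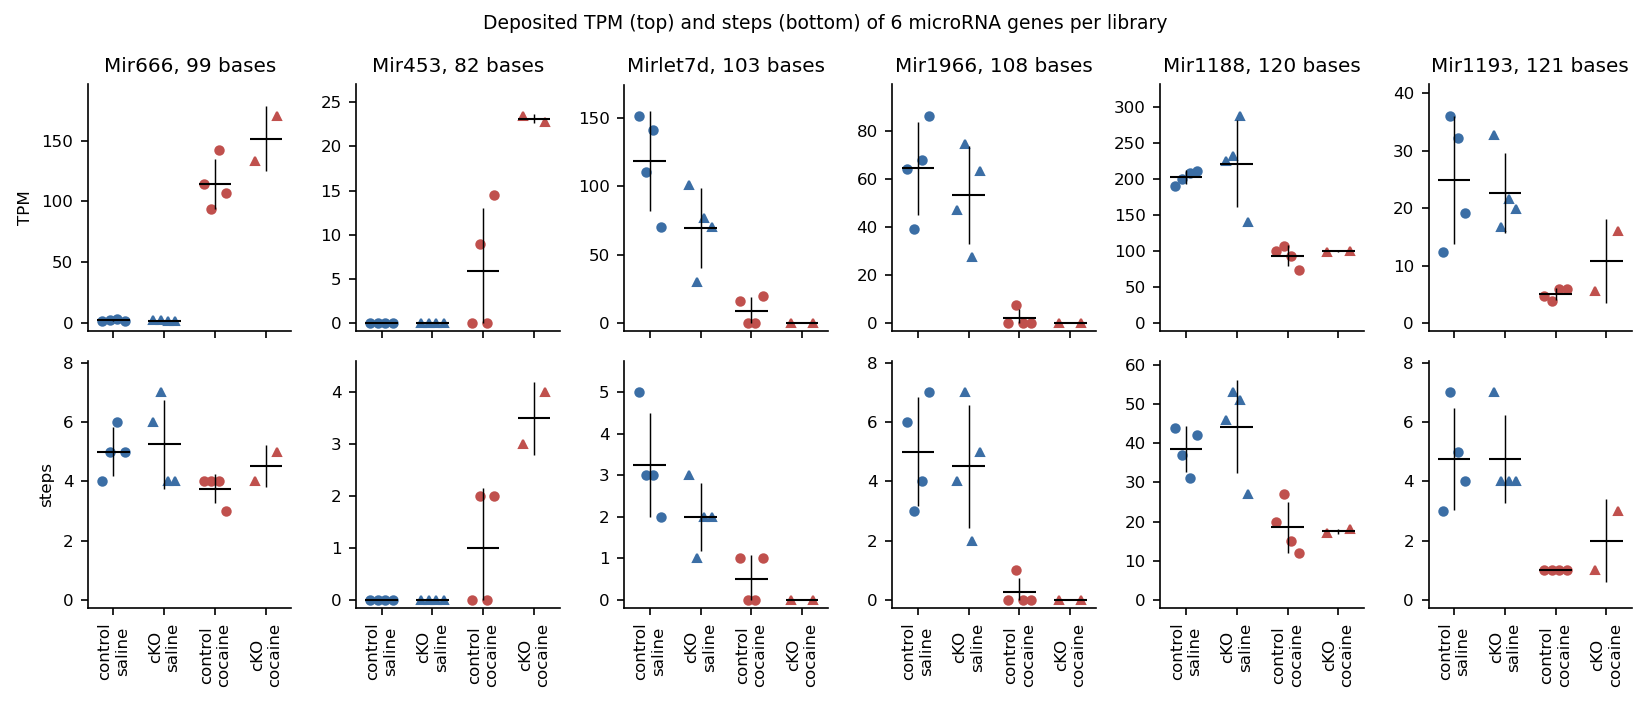
Deposited TPM (top) and steps (bottom) of Mir666, Mir453, Mirlet7d, Mir1966, Mir1188 and Mir1193 in each library, by labelled group, circles control and triangles cKO, blue saline and red cocaine, horizontal bars the group means and vertical bars the SD. The TPM of Mir666 separates the treatments while its steps overlap, and Mirlet7d and Mir1966 are low after cocaine on both scales.

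The other members of the chromosome 12 region moved both ways. Of 18 tested members in clusters there, with at most 10 kb between neighbours, 7 were called higher, 3 lower and 8 were not called with the deposited TPM, and 5 were higher and 1 lower in the step fit, against 2.07% and 2.03% of all genes in either direction. Of the 7 called higher, 5 passed the filter through cocaine libraries alone, so the direction of their calls was fixed and the count supports nothing on its own. The called-higher members other than Mir666, Mir453 and Mir337 were Mir494, Mir376c, Mir654 and Mir3072, each of 83 to 86 bases and at 0 in all 8 saline libraries. Mir654 was at 6.26, 8.79, 6.51 and 7.18 TPM in control cocaine and at 7.80 and 0 TPM in cKO cocaine libraries, 1 or 2 steps each where above 0 (adjusted p = 0.000324 by limma). Mir3072 was at 6.22, 4.40, 6.56 and 0 TPM and at 15.6 and 7.26 TPM (adjusted p = 0.000242). Mir494 was at 6.31, 0, 12.9 and 7.31 TPM and at 0 and 13.9 TPM (adjusted p = 0.0168), and Mir376c at 6.31, 4.60, 13.1 and 0 TPM and at 32.6 and 0 TPM (adjusted p = 0.0187). Each of these 2 lost its call without 1 of the 2 cKO cocaine libraries, Mir494 without replicate 2 (adjusted p = 0.148) and Mir376c without replicate 1 (adjusted p = 0.133). These values all sit at lengths where saline libraries have few or no values of any gene.

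Mir337 and the Mir3070 pair open the region. Mir337 was at 37.3 to 169.0 TPM in saline and 77.4 to 303.2 TPM in cocaine libraries, so the groups overlapped, and it was called higher with the deposited TPM (1.17 ± 0.38, adjusted p = 0.0325 by limma). In the step fit its log2 fold change was 0.09 (adjusted p = 0.864). Mir3070a, whose hairpin is 89 bases, was at 118.7, 2.85, 1.19 and 3.12 TPM in control saline libraries, while its steps there were 4, 6, 2 and 7. The first of these libraries differed from the others of its group in the size of a step, which is uncertain at this length. Mir665 was called lower with the deposited TPM (-3.43 ± 1.21, adjusted p = 0.0458 by limma), at 11.4 to 242.1 TPM in saline and 0 to 31.05 TPM in cocaine libraries, and was not called in the step fit (adjusted p = 0.18).

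Mir341 and Mir1188 lie side by side in an intron of Rian and were the members read most deeply. Mir1188 was at 189.4, 199.6, 208.5 and 211.3 TPM in control saline and 224.7, 232.0, 287.4 and 140.0 TPM in cKO saline libraries. It was at 99.8, 106.8, 92.5 and 73.5 TPM in control cocaine and at 98.7 and 99.9 TPM in cKO cocaine libraries. All 6 cocaine libraries lay below all 8 saline libraries, and the log2 fold change was -0.73 ± 0.12 (SE), adjusted p = 0.0008 by limma. In steps, which are not adjusted for depth, 27 to 53 in saline libraries stood against 12 to 27 in cocaine libraries. The step fit, which takes depth into account, gave a log2 fold change of -0.30 (adjusted p = 0.0891 by limma), short of a call. Its neighbour Mir341 was at 170.7 to 406.5 TPM in saline and 203.1 to 475.6 TPM in cocaine libraries, with overlapping groups and no call (0.36 ± 0.20, adjusted p = 0.189 by limma). Rian was at 109.1 to 155.1 TPM in saline and 84.5 to 103.7 TPM in cocaine libraries before TMM scaling, and its log2 fold change after scaling was -0.09 (adjusted p = 0.191).

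Mir1193 was the 1 member of the region that was lower in both fits. It was at 12.3 to 36.1 TPM in control saline and 16.7 to 32.7 TPM in cKO saline libraries, and at 4.79, 3.80, 5.92 and 5.88 TPM in control cocaine and 5.57 and 16.0 TPM in cKO cocaine libraries. That is 3 to 7 steps in saline libraries and 1 step in all cocaine libraries but 1, which had 3. The log2 fold change was -1.26 ± 0.29 (SE), adjusted p = 0.00551 by limma, and -0.85 (adjusted p = 0.0396) in the step fit. Within labels it was called in control (adjusted p = 0.0054) and not in cKO (adjusted p = 0.237), and the interaction was not called (adjusted p = 0.424). The remaining cluster members Mir1197, Mir329, Mir667 and Mir541 were not called in any comparison. Mir323, at 0 in 6 of 8 saline libraries, was called higher within the control label only (adjusted p = 0.0147 by limma). It reached 1 TPM in control cocaine libraries alone and passed the filter through them, so the call is no evidence of a difference. A call within 1 label is also not a test of a difference between labels.

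**Figure D5:**
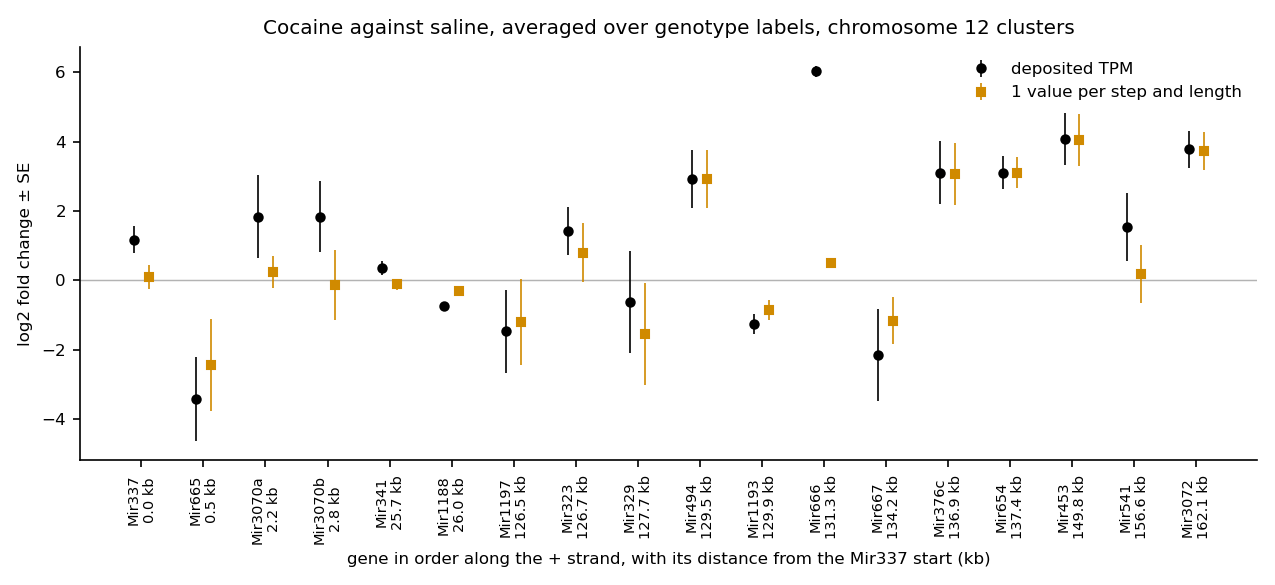
Log2 fold change ± SE, cocaine against saline averaged over genotype labels, of the 18 clustered members on chromosome 12 in their order along the + strand, with the distance of each from the start of Mir337 in kb, black with the deposited TPM and orange with 1 value per step and length. Mir494, Mir376c, Mir654, Mir453 and Mir3072 stay above 0 in both, Mir666 falls from 6.03 to 0.49, and Mir1193 stays below 0.

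Mirlet7d and Mir1966 carried the largest falls and were lower in both fits. Mirlet7d belongs to the let-7 family, known for repressing growth genes in differentiating cells. It lies in an exon of the noncoding RNA 6720427I07Rik, which is not listed in the tables. It was at 151.4, 110.6, 140.8 and 70.0 TPM in control saline and 100.9, 30.3, 76.8 and 70.4 TPM in cKO saline libraries, and at 16.0, 0, 0 and 19.7 TPM in control cocaine and 0 in both cKO cocaine libraries. All cocaine libraries lay below all saline libraries. The log2 fold change was -5.90 ± 0.88 (SE), adjusted p = 0.000325 by limma, and -5.52 (adjusted p = 0.00237) in the step fit. In steps, 21 over the 8 saline libraries stood against 2 over the 6 cocaine libraries, where the step at this length was known from 2 libraries. Its cluster neighbours, with the same seed on the 5′ arm, were not called. Mirlet7f-1 was above 0 in every library (1.44 ± 0.94, adjusted p = 0.269 by limma), and Mirlet7a-1 was at 0 in 11 of 14 libraries (adjusted p = 0.628). The difference between these neighbours was not tested.

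Mir1966 overlaps an exon of Ripor1 in part. It was at 64.2, 39.2, 68.0 and 86.4 TPM in control saline and 47.0, 74.8, 27.7 and 63.5 TPM in cKO saline libraries, which is 2 to 7 steps each. After cocaine it was at 0 in 5 libraries and at 7.69 TPM, 1 step, in 1 library labelled control. The log2 fold change was -6.12 ± 0.61 (SE), adjusted p = 2.39e-05 by limma, and -6.01 (adjusted p = 6.87e-05) in the step fit. It was called lower within both labels, with adjusted p = 0.000426 in control and 0.000961 in cKO. Because most cocaine values were 0, the size of this fall and of that of Mirlet7d depends on the pseudocount. Both members were above 0 in fewer than 3 cocaine libraries. They entered the test through the saline libraries where they are high, which favoured a lower call. Ripor1, the host of Mir1966, had a log2 fold change of 0.27 (adjusted p = 0.000821 by limma), under the 0.5 needed for a call. At 108 bases a step was worth 10.7 to 16.5 TPM in saline and 7.69 to 11.9 TPM in cocaine libraries, so the fall was in the number of steps. With Mir1188, these were the 3 members of 144 with every cocaine library below every saline library, as deposited and after TMM scaling. Of all tested genes 43.2% were so as deposited and 4.86% after scaling.

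Outside these clusters, few calls rested on more than 1 or 2 steps a library. Mir6387, in an intron of Trib2, was at 0 to 26.1 TPM in saline libraries and at 0 in all cocaine libraries but 1, at 11.8 TPM, and was lower in both fits (-3.85 ± 0.99, adjusted p = 0.0102 by limma, and adjusted p = 0.0161 in the step fit). Mir1b, in an intron of Mib1, was at 0 in 1 of 8 saline and 5 of 6 cocaine libraries (adjusted p = 0.0105 by limma), with 1 to 3 steps where above 0. Mir1969 was at 10.9, 16.3, 48.4 and 17.2 TPM in control saline libraries, 1 step each, at 25.2 TPM in 1 cKO saline library and at 0 in all other libraries (adjusted p = 0.00698). Mir8095 and Mir3473g, in introns of Dgkg and Sppl2a, were at 0 in all cocaine libraries and reached 7.34 and 4.85 TPM in saline libraries (adjusted p = 0.0353 and 0.0354). Their calls were kept in only 4 of 14 fits that left out 1 library. Against a group at 0 no fold is given for these 3, which passed the filter through saline libraries alone. Mir3062 and Mir3470b were lower with the deposited TPM alone (adjusted p = 0.0417 and 0.0469 by limma, and 0.0611 and 0.0756 in the step fit). Mir6387, Mir1b, Mir3062 and Mir3470b had too few cocaine values to pass the filter without saline libraries.

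On the higher side, Mir744 is a hairpin of 100 bases in an intron of Map2k4 and repeated the pattern of Mir666. It was at 0.752 to 2.21 TPM in saline libraries, 2 to 5 steps, and at 49.0, 39.6, 0 and 0 TPM in control cocaine and 28.4 and 28.7 TPM in cKO cocaine libraries, 1 or 2 steps where above 0. Its log2 fold change was 2.93 ± 1.06 (SE), adjusted p = 0.0496 by limma, and turned to -0.72 (adjusted p = 0.104) in the step fit. Mir1251, of 84 bases and in an intron of Rmst, was at 0 in every saline library, at 6.26 TPM in 1 of 4 control cocaine libraries and at 15.6 and 14.1 TPM in cKO cocaine libraries (adjusted p = 0.0011 by limma).

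Some members were called within 1 label but not in the average. Mir7045, Mir1894 and Mir425, of 63, 81 and 85 bases, were at 0 in all saline and both cKO cocaine libraries and above 0 in 3 of 4 control cocaine libraries, at 6.31 to 17.4 TPM. They were called higher in control, but they passed the filter through just those 3 libraries, so the call is no evidence of a difference. Mir1931, Mir345, Mir6944 and Mir1192 were called lower in control (adjusted p = 0.00822, 0.0263, 0.0233 and 0.0392 by limma). The first 3 of these were at 0 in all 4 control cocaine libraries and at 3 steps or fewer elsewhere. Mir6944 was at 0 in both cKO cocaine libraries as well, so it passed the filter through saline libraries alone and could only be called lower. Mir1192 was at 15.5 to 45.0 TPM in control saline libraries, at 0, 0, 5.92 and 17.6 TPM in control cocaine libraries, and at 27.9 and 10.7 TPM in cKO cocaine libraries, so its control groups overlapped. In steps its control call was lost (adjusted p = 0.0668). Mir488 was the 1 member called by the interaction test, against 0.854% of all genes (log2 difference 5.80 ± 1.30, adjusted p = 0.0497 by limma). It was at 14.7 TPM in 1 control saline library, at 10.3 and 10.1 TPM in the 2 cKO cocaine libraries and at 0 in the other 11, 1 step wherever it was above 0. It passed the filter through just these 3 libraries, so the call is no evidence that its response differed between labels. The Maged1 level of the cKO cocaine libraries also went against their label. Mir488 lies in an intron of Astn1. Its interaction call was kept in 3 of 20 other settings, 1 of them among the 11 that left out 1 library, and not without scaling or with median-of-ratios scaling.

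Between the genotype labels, limma called 0 of 144 members after saline, against 0.0445% of all genes. At an unadjusted p under 0.05 there were 5 of 144 members, against 2255 of all 13471 genes. After cocaine it called 0 members, against 0.0371% of all genes. At an unadjusted p under 0.05 there were then 16 of 144 members, against 1635 of 13471 genes.

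The remaining clusters held no call with the deposited TPM. On chromosome 2, an intron of Sfmbt2 holds 53 members of the repetitive Mir466, Mir467, Mir669 and Mir297 families, of which 16 were tested. Their values reached at most 38.5 TPM and they were at 0 in 3 to 11 of 14 libraries. Their log2 fold changes ran from -2.75 to 1.70, and 0 of 16 were called in any of the 6 comparisons, the smallest adjusted p in the average being 0.101. In the step fit, Mir669a-2 was called lower (adjusted p = 0.049 by limma), at a length where saline step numbers are uncertain. The hairpins of these families are near copies of each other, so reads can be split between them and single values are uncertain. Sfmbt2, a polycomb group gene, was at 1.57 to 2.20 TPM in saline and 0.992 to 1.38 TPM in cocaine libraries before TMM scaling and was not called (log2 fold change -0.20, adjusted p = 0.0657). On chromosome 3, Mir3093 and the brain microRNA gene Mir9-1 were not called (adjusted p = 0.296 and 0.788). Mir1249, in an exon of 5031439G07Rik and among the 5 highest members in control saline, was at 41.6 to 272.4 TPM in saline and 40.0 to 273.6 TPM in cocaine libraries, with overlapping groups (adjusted p = 0.278 by limma). The other 4 of the highest 5 were Mir341, Mir1188, Mirlet7d and Mir665.

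Hosts and processing genes gave a background of well measured transcripts. Of the 144 tested members, 117 lie on the same strand within another gene, 21 of them in an exon, where reads of host and hairpin cannot be told apart. Of the 81 hosts tested, 1 was called in the average, near the 2.07% of all genes. This was Strbp, which was lower and is the host of Mir5128. Within the control label Snhg20, the host of Mir6516, was lower as well. By the interaction test Epha4 (-0.82, adjusted p = 0.047 by limma), the host of Mir6352, and Trib2 (-0.63, adjusted p = 0.0144), the host of Mir6387, were called. No tested host of a member called in the average was called there itself, and the host of Mirlet7d is not listed. Of 35 genes of microRNA processing and action, 33 are listed and 32 were tested, and limma called 0 of them in each of the 6 comparisons. In the average, their log2 fold changes ran from -0.35 for Tsn, a subunit of the nuclease that helps load Argonaute, to 0.23 for Srrt, which links the cap-binding complex to Drosha. Drosha itself had 0.23 ± 0.04 (adjusted p = 0.000505 by limma) and Dicer1 -0.11 ± 0.03 (adjusted p = 0.0127), both under the 0.5 needed for a call. Small nucleolar and Cajal body RNAs, which are also short, had 10 members higher and 9 lower among 57 tested in the average, against 2.07% of all genes, and the filter acts on them as on the microRNA genes.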

How the data were processed

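Thalami of control and cKO mice were measured by ribosomal-RNA-depleted, stranded, paired-end RNA-seq. The authors mapped reads to GRCm38.p4/mm10 with STAR 2.5.3a, quantified them with Salmon and deposited 1 table of TPM per library, with 25080 symbols each. In 2 tables the decimals are commas, and these were read as TPM. The listed values sum to 312659 to 377401 TPM per library, and TPM carries no counts or depth, so no counting intervals are given. The precision is limited by the steps of short genes, of which 1 is the least that can be seen. The genotype labels were taken from the sample titles.

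TPM was divided by unweighted TMM factors (30% of log ratios and 5% of mean levels trimmed) and taken as log2 of the value plus 0.5 TPM. Tests were run with limma 3.58.1 in R 4.3.3 on genes that reached 1 TPM in 3 libraries or more. They used a means model of the 4 groups with an intensity trend and Benjamini-Hochberg adjustment over all tested genes. This limma fit was tried on simulated data, drawn with a normal spread around the mean of each gene. Those data held no steps, and the step fit was not tried on them. On this scale the pseudocount shrinks ratios of low values that are above 0. Between 0 and a single step of several TPM it gives large log2 differences, such as 5.80 for Mir488. Coordinates and lengths came from GENCODE vM21 on GRCm38, which holds 1140 of the 1153 members and all 144 tested, and sequences from RefSeq on GRCm38.p6, with an entry for 1017. The annotation behind the symbols is given by the study as Ensembl, and the length of each tested member equalled its GENCODE span.

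The value of 1 fragment in long genes was 34.2 to 53.3 TPM times bases in saline and 42.7 to 66.0 in cocaine libraries. Relative to it, the value of 1 step was the lowest value that at least 3 libraries of a treatment shared at a length, with gaps interpolated. Saline steps at 99 and 100 bases and the next 2 lengths, and at shorter lengths where values were as low, were set to this fragment value over the full length, and the other saline steps at 85 to 98 bases to the lowest value in each library over a whole number. These rules were chosen after seeing the data. The step fit gave each step of a length the median of these relative values in all libraries, times that constant. Named were Mir666 and Mir453, every member called in any comparison, every member in a cluster of tested members and the 5 highest in control saline, 58 in all. The members, lists and named examples were chosen with earlier results of these data known. Alternatives were no scaling, median-of-ratios scaling, pseudocounts of 0.1 and 1 TPM, other filters, a fit of only the 2 groups compared, no trend, a replicate block, the genotype tag, each library left out and, added later, the step fit. The study describes the samples as independent. Figures were drawn with matplotlib 3.10.9.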

Additional observations from a re-analysis of the deposited data

Results flagged for a closer look

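In 10 of the 55 groups of 4 libraries tested among the named members, 1 library stood apart from the other 3 by Dixon's criterion. The criterion's rate of about 1 in 20 by chance holds for independent, normally spread values. Values here are mostly a few steps, and members of equal length share the step of a library. The 10 groups are therefore not set against that rate. In control saline these were Mir1969 with 48.42 TPM, Mir3070a with 118.7 TPM and Mirlet7f-1 with 118.7 TPM. In cKO saline they were Mir3070a with 186.0 TPM, Mir3070b with 62.01 TPM, Mir3093 with 138.3 TPM, Mir669a-2 with 38.47 TPM, Mir9-1 with 62.01 TPM and Mirlet7f-1 with 31.00 TPM. In control cocaine it was Mir337 with 303.2 TPM. Mir1969 has 94 bases, Mir337 and Mir669a-2 have 97, and the others have 87 or 89. The TPM of 1 step differed between saline libraries at all these lengths, from 9.25 to 48.4 TPM at 94 bases and 5.74 to 18.8 TPM at 97. Mir1969 was at 1 step in all 4 control saline libraries. Mir669a-2 in cKO saline was at 3 steps where it stood apart and at 1 elsewhere, though saline step numbers are uncertain here. Mir337 in control cocaine was at 10 steps against 3 in each of the others. In steps, Mir3070a in control saline was at 4 in the library that stood apart and at 6, 2 and 7 in the others, and Mirlet7f-1 at 4 against 5, 6 and 2.

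Mir488 is listed because it was called by the interaction test of genotype label and treatment (log2 difference 5.798, adjusted p = 0.0497 by limma). It was above 0 in 3 of 14 libraries, the same 3 through which it passed the filter. Over the alternatives its adjusted p ran from 0.0397 to 0.775.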

How the results depend on the processing

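Counts of called members kept to within 1.5 times under most settings. With TPM as deposited, 31 members were called in control, 16 in cKO and 40 in the average, against 18.0%, 23.4% and 17.4% of all genes, and with a mean of at least 5 TPM, where fewer genes are tested, 9, 5 and 12, against 2.66%, 2.74% and 2.02%. With the compared groups alone, 15 were called in cKO and 4 between labels after cocaine, against 3.02% and 0.0742%. The interaction call was lost, at 0, without scaling, with median-of-ratios scaling, a pseudocount of 0.1 TPM, no filter, a mean of at least 5 TPM, no intensity trend, the replicate block and the genotype tag. The cause was not tested. Leaving out each library in turn gave 14 to 21 in control, 6 to 11 in cKO, 15 to 21 in the average, 0 to 1 between labels after saline, 0 to 2 after cocaine and 0 to 2 for the interaction. Shares of all genes called in these fits are not given, so the counts are not set against that background. Where 1 cKO cocaine library is left, it is assumed to vary like the other groups.

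Replicate numbers did not pair the samples, since the deviations of the 18 same-numbered pairs had correlations of -0.165 to 0.103. The replicate number as a block gave 19 members called in control, 11 in cKO and 21 in the average, against 2.87%, 2.76% and 2.17% of all genes. Direction was reversed for 1 of the named values, Mir744, from 2.93 to -0.7194 with 1 value per step and length, where the step itself differs between treatments. Over the 59 named values, 1401 pairs of value and setting were run, of which 189 lost the call, 15 gained it and 1196 kept their side. In the averaged comparison Mir1966, Mirlet7d, Mir1193, Mir1969, Mir6387, Mir1b, Mir453, Mir654, Mir3072 and Mir1251 kept their call under every setting in which they were tested, though Mir453, Mir654, Mir3072, Mir1251 and Mir1969 were at 0 in all libraries of 1 treatment, which fixes their direction. Mir1966, Mirlet7d, Mir6387 and Mir1b entered the test through saline libraries, which favoured their direction. Mir666 and Mir1188 lost their call in the step fit alone. Fewer than 5 of the 14 libraries left out in turn left the call in place for Mir744 (2), Mir665 (3), Mir3062 (3), Mir3470b (3), Mir3473g (4) and Mir8095 (4). Mir337 was called in 10 of 14, and not without control saline replicate 2 (adjusted p = 0.0578), cKO saline replicates 1 (0.0519) and 2 (0.059) or cKO cocaine replicate 2 (0.15). Most values rest on 1 to 3 steps, which limits the precision, and a value of 0 says only that the member was listed at 0.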

Other observations

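The members' summed TPM was 2253 to 3469 in saline libraries and 1704 to 2378 in cocaine libraries, that is 0.670 to 1.09% and 0.520 to 0.703% of the listed TPM. In steps the sums were 256 to 388 and 123 to 206, of which those at 85 to 98 bases in saline libraries are uncertain. The value of 1 fragment in long genes was 34.2 to 53.3 TPM times bases in saline and 42.7 to 66.0 in cocaine libraries.

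Some clusters had no tested member. On the X chromosome, 17 members within chrX:66776757-66839125, 7 within chrX:53047997-53054349 and 6 within chrX:52741693-52742567 did not reach 1 TPM in 3 libraries for any member. At chr12:109709060-109747960, 12 of 38 members did.

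Small nucleolar and Cajal body RNAs of up to 84 bases had 2 of 6 tested members called higher in the average and 0 lower. All 61 listed at this length were at 0 in every saline library. The 6 tested passed the filter through cocaine libraries alone, which fixed the direction of any call. Those in the longest class had 2 higher and 6 lower among 35 tested. Of all genes, 1.05% were called higher and 1.02% lower. The 2 length classes are therefore not set against each other. Mir99ahg, the host transcript of a let-7 and miR-99 cluster, was lower in control (-0.53, adjusted p = 0.0073 by limma) and was the 1 call among 7 tested host symbols named after a microRNA. It was at 0.824 TPM or more in control saline and 0.273 to 0.433 TPM in control cocaine libraries before TMM scaling.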
